A study of Homo sapiens with 6 samples.

Results

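The proteasome is the protease that degrades proteins marked with ubiquitin. Its 20S core is a barrel of alpha and beta subunits, of which PSMB5, PSMB6 and PSMB7 carry the active sites. The 19S regulatory particle binds ubiquitin chains, removes them and unfolds the substrate with a ring of ATPases. In cells exposed to interferon, PSMB8, PSMB9 and PSMB10 replace PSMB5, PSMB6 and PSMB7 in newly built particles, which are then called immunoproteasomes. Proteasome subunit genes are known to be driven together by the transcription factor NFE2L1 when protease activity is short.

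The genes described here are the protein-coding rows of the deposited table whose symbol begins with PSMA to PSMG followed by a digit. There were 49 of them among 58302 rows. They comprise 8 alpha and 11 beta subunit genes, 17 subunit genes of the 19S particle, 7 assembly chaperone genes, and 5 genes of activators and an inhibitor. The remaining gene, PSMC3IP, encodes a recombination cofactor that is no part of the proteasome and has a matching symbol only.

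The cells were MDA-MB-231-DR, a doxorubicin-resistant line made from MDA-MB-231, which is of triple-negative breast cancer origin. RNA-seq covered 3 control libraries and 3 of cells treated with Cyperotundone (CYT), the main active compound of sedge. Per the study's methods, the resistant line was kept in medium with a low concentration of doxorubicin, so both groups share that background. The dose and time of CYT for these libraries are not given in the sources used here, and the labels do not say whether the libraries came from separate cultures. The methods speak of 3 independent experiments for the study in general, without naming the sequencing, so the p-values measure the spread between these libraries.

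Counts summed to between 14050849 and 17770102 in control libraries and between 13056270 and 14106017 in CYT libraries. Of the 6 markers fixed for the line, VIM and CD44 were well counted, while ESR1, PGR and EPCAM stayed at 12 counts or fewer, and CDH1 had 0 in each control library and 2 to 16 in CYT libraries. The summed level of these markers was 2400 to 2870 CPM in control and 1030 to 1230 CPM in CYT libraries. VIM made up most of this sum and fell by 1.30 on the log2 scale (SE 0.26, adjusted p = 0.00535, edgeR). CD44 was not called, with means of 139 CPM in control and 122 CPM in CYT libraries (log2 fold change -0.19, adjusted p = 0.639, edgeR). CPM is the count divided by the TMM-scaled library total and brought to a common scale of 1e6, and SE is the standard error of a log2 fold change. Counts are shares of a library, so fewer cells that express a gene and less of its RNA per cell cannot be told apart.

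CYT-treated cells had less RNA of 9 proteasome genes, which encode lid, core ring, chaperone and activator proteins. PSME3, PSMD7, PSMD14, PSMG1 and PSMD11 fell most, and PSME2, PSMC3IP and PSMB11 rose. Of the 49 genes, 48 passed the filter on low counts and entered edgeR's quasi-likelihood test of CYT against control. A gene was called where its p-value, adjusted over all 15572 genes tested, was under 0.05. By this rule, 9 members were lower, 3 were higher and 36 were not called. Without regard to a test, 12 members had every CYT value below every control value (22.7% of all genes tested did) and 7 had every CYT value above (23.4%). The called members were 25.0% of those tested, against 28.6% of all genes tested. The lower members were 18.8% against a background of 12.9%, and the higher members 6.25% against 15.7%. In this fit the share of called members was near that of the whole table. With the replicate number as a block, 14 members (29.2%) were called, against 39.9% of all genes. Neither count is a result about the proteasome as a set.

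The median log2 fold change of the 48 members was -0.10, beside 0.0064 over all genes tested. Upper-quartile normalization moved these medians to 0.048 and 0.16, and leaving out CYT replicate 2 moved the members' median to -0.35. Members took 0.900 ± 0.0292% (SD, n = 3) of all counts in control and 0.860 ± 0.0567% (SD, n = 3) in CYT libraries, with ranges that overlapped. With the further criterion of an absolute log2 fold change over 1, used by the study for its differentially expressed genes, 6 members were lower (12.2% of all genes tested were) and 2 higher (15.2%), in all 8 members beside 27.4% of all genes. Leaving out control replicate 3, CYT replicate 1 or CYT replicate 3 lowered the count of called members from 12 to 7 (14.6%) in each case, while the share of all genes called fell to between 17.6% and 20.7%. In all, 7 members kept their call in every alternative fit that tested them. These were PSME3, PSMD7, PSMD14, PSMD11 and PSMG1 among the lower genes, and PSMB11 and PSMC3IP among the higher. PSMB11 had no count in control and passed the filter through the CYT libraries alone, so it had to differ.

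**Figure D1:**
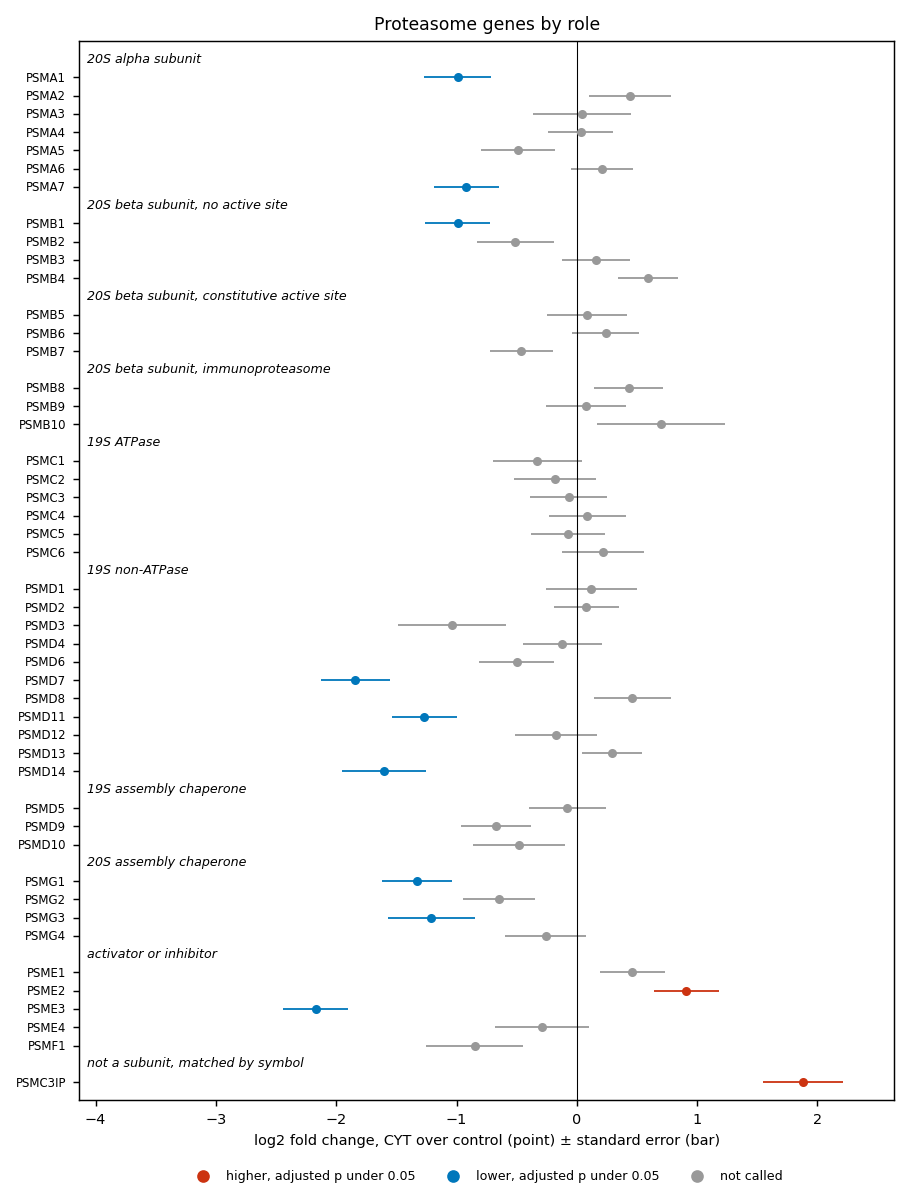
Log2 fold change of CYT over control (points) with its standard error (bars) for 47 members that were tested, grouped by role, with called genes in blue (lower) and red (higher). PSMB11, which had no count in control, is left out. The values run from -2.17 for PSME3 to 1.88 for PSMC3IP, the ATPases lie between -0.33 and 0.22, and each group that holds a lower gene also holds uncalled ones.

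The 250 bases upstream of the RefSeq transcription start (GRCh38.p14) are shown for the 5 genes that were lower in every fit, with those of PSME2 and PSMB11, which were higher. Each is given 5′ to 3′ on the strand of the gene. Capitals mark matches, on either strand, to the CCAAT box, the antioxidant response element core TGACNNNGC, the interferon response element core (GAAA, any 2 bases, GAAA) and the interferon gamma activated site core TTCNNNGAA.
PSME3, chr17:42833147-42833396, plus strand: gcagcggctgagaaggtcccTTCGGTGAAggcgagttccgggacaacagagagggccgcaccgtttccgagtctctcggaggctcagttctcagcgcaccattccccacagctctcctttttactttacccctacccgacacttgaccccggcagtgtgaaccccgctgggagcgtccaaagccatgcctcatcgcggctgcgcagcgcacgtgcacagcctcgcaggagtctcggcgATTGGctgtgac
PSMD7, chr16:74296564-74296813, plus strand: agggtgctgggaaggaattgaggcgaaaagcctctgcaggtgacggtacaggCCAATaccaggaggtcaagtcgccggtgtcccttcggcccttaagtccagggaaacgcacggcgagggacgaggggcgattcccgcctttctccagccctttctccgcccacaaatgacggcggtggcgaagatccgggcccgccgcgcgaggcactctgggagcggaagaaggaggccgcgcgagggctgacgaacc
PSMD14, chr2:161308175-161308424, plus strand: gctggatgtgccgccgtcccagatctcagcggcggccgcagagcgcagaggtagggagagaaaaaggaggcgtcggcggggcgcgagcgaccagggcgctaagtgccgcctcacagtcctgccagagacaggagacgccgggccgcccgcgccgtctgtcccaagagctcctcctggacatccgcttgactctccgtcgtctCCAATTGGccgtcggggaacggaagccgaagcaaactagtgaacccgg
PSMD11, chr17:32444260-32444509, plus strand: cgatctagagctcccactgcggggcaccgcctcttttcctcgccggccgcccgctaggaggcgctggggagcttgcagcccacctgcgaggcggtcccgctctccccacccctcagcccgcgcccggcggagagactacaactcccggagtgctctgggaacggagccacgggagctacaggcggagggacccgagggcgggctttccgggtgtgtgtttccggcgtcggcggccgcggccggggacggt
PSMG1, chr21:39183452-39183701, minus strand: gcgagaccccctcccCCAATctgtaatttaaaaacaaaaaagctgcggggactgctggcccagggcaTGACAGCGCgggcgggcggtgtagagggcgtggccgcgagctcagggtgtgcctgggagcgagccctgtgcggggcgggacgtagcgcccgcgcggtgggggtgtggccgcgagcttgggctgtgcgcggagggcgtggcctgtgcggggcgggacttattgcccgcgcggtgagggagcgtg
PSME2, chr14:24146611-24146860, minus strand: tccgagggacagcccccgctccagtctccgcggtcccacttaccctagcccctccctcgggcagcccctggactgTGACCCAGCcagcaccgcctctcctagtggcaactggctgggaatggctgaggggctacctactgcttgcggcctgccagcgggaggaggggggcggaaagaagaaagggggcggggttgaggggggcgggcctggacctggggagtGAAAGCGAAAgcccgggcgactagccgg
PSMB11, chr14:23041962-23042211, plus strand: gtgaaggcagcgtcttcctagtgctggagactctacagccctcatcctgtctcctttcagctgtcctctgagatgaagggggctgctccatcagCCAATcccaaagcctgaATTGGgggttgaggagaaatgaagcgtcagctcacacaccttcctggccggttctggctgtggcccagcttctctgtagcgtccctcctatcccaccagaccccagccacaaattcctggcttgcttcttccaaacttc

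RefSeq windows were matched by symbol for 43 of the 49 members, and 6 (PSMA7, PSMB1, PSMB6, PSMB7, PSMD4 and PSMG3) had none in the table. The element TGACNNNGC, which NFE2L1 and related factors bind, was in the window of 13 of the 43 members (30.2%) and of 13.2% of all 27305 genes with a window. Among members called lower it was found in 1 of 6, PSMG1, and among members not called in 11 of 33. The CCAAT box was in 4 of the 6 windows of lower members, 14 of the 33 of uncalled members, and 37.0% of all genes. The interferon response element core was in 5 of the 43 members (11.6%) and in 3.71% of all genes. These members were PSMA4, PSMB4, PSMB10, PSMG4 and PSME2. TTCNNNGAA was in 7 members (16.3%) and in 8.09% of all genes. Its members were PSMA2, PSMA8, PSMB5, PSMB8 (in 1 of 2 windows), PSMC4, PSMD3 and PSME3. A match describes these letters and is not a measured binding site, genes with more than 1 window were counted once, and a RefSeq start can lie inside the span that the deposited table gives for the gene.

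The largest fall among the members was that of an activator. PSME3 (ENSG00000131467, chromosome 17 from 42824385 to 42843758, plus strand) encodes the PA28 gamma cap of nuclear proteasomes. Replicates 1 to 3 had 395, 329 and 365 CPM in control and 83.4, 76.8 and 81.4 CPM after CYT, and the libraries are named in this order throughout. The CYT libraries lay close together and far below each control library. PSME3 changed by -2.17 log2 units (SE 0.27, adjusted p = 0.000892, edgeR). Of the exonic bases of PSME3 in GENCODE 29, 5.82% overlap exons of BECN1 on the opposite strand.

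The other activator genes took different paths. PSME1 and PSME2 encode the alpha and beta subunits of PA28, the interferon-inducible cap. PSME2 (ENSG00000100911, chromosome 14 from 24143362 to 24147570, minus strand) had 170, 213 and 186 CPM in control and 295, 396 and 381 CPM in CYT libraries, with no overlap. It rose by 0.91 on the log2 scale (SE 0.27, adjusted p = 0.0323, edgeR). This call was lost without a filter (adjusted p = 0.0876, edgeR) and with any single library left out other than CYT replicate 2 (adjusted p = 0.0577 to 0.122, edgeR). PSME1 was also above control in each CYT library, without passing the test (log2 fold change 0.46, adjusted p = 0.226, edgeR). PSME4, which encodes the PA200 activator, and PSMF1, which encodes the inhibitor PI31, were not called (log2 fold changes -0.29 and -0.85). With the replicate number as a block, PSMF1 was called lower (adjusted p = 0.0281, edgeR).

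Within the 19S particle, 3 of 17 subunit genes were called (17.6%, against 28.6% of all genes), each of them lower and each a gene of the lid, the part that carries the deubiquitinase. Of all genes, 12.9% were lower. PSMD14 encodes that deubiquitinase, and PSMD7 encodes its binding partner. PSMD7 (ENSG00000103035, chromosome 16 from 74296775 to 74306288, plus strand) had 140, 171 and 155 CPM in control and 50.5, 45.5 and 34.0 CPM in CYT libraries. PSMD14 (ENSG00000115233, chromosome 2 from 161308038 to 161411717, plus strand) had 80.7, 104 and 92.3 CPM in control and 21.9, 45.5 and 24.3 CPM in CYT libraries. Both genes lay below the control range in 3 of 3 CYT libraries, and the CYT replicate 2 value of PSMD14 stood above the other two. The log2 fold change of PSMD7 was -1.84 (SE 0.29, adjusted p = 0.00230, edgeR), and that of PSMD14 was -1.60 (SE 0.35, adjusted p = 0.00936, edgeR).

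PSMD11 (ENSG00000108671, chromosome 17 from 32444261 to 32483318, plus strand) encodes a scaffold subunit of the lid. Its values were 169, 173 and 171 CPM in control and 82.3, 64.0 and 66.4 CPM in CYT libraries. The control libraries stood close together, and its log2 fold change was -1.27 (SE 0.27, adjusted p = 0.00771, edgeR). Of the 8 PSMD genes of the lid, a grouping made after the values were seen, the other 5 were not called and ranged from -1.04 (PSMD3) to 0.46 (PSMD8). PSMD3 had 312, 129 and 270 CPM in control and 150, 55.2 and 141 CPM in CYT libraries, with overlapping groups, and it was called once same-numbered libraries were blocked (-1.07, adjusted p = 0.00705, edgeR) but not otherwise (adjusted p = 0.114, edgeR). Of the exonic bases of PSMD7, 30.7% overlap a processed transcript on the opposite strand that had 2 to 20 counts in a library.

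The 6 ATPase genes PSMC1 to PSMC6, which encode the unfolding ring, were not called, and their log2 fold changes ran from -0.33 to 0.22. None was called by DESeq2 either, and none had an unadjusted p under 0.05 by edgeR or DESeq2. Of the genes each tool tested, 28.6% were called by edgeR and 17.3% by DESeq2, and 6 genes are too few to be set apart from these shares. The base subunits PSMD1 and PSMD2 and the ubiquitin receptor PSMD4 were not called either. PSMD1, the largest scaffold of the base, had 1528, 1980 and 1519 counts in control and 1003, 2537 and 1064 counts in CYT libraries. The value of CYT replicate 2 was above every control library and the other CYT values below them, so the log2 fold change of 0.12 (adjusted p = 0.843, edgeR) became -0.42 without that library.

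In the 20S core, 2 of 7 tested alpha genes and 1 of 4 beta genes without an active site were called (28.6% and 25.0%, against 28.6% of all genes). Each was lower by about the same amount, and 12.9% of all genes were lower. PSMA1 (ENSG00000129084, chromosome 11 from 14504874 to 14643635, minus strand) had 158, 183 and 155 CPM in control and 72.9, 100 and 76.2 CPM in CYT libraries. PSMA7 (ENSG00000101182, chromosome 20 from 62136735 to 62143440, minus strand) had 449, 530 and 567 CPM in control and 240, 316 and 259 CPM in CYT libraries. PSMB1 (ENSG00000008018, chromosome 6 from 170535117 to 170553341, minus strand) had 383, 412 and 379 CPM in control and 165, 234 and 191 CPM in CYT libraries. The groups did not overlap for any of these 3 genes.

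The log2 fold changes were -0.99 for PSMA1 (SE 0.28, adjusted p = 0.0259, edgeR), -0.92 for PSMA7 (SE 0.27, adjusted p = 0.0293, edgeR) and -0.99 for PSMB1 (SE 0.27, adjusted p = 0.0223, edgeR). PSMA1 (adjusted p = 0.0621 to 0.106, edgeR) and PSMB1 (adjusted p = 0.0537 to 0.1, edgeR) lost their calls with any single library left out other than CYT replicate 2. PSMA7 lost its call without control replicate 2 or 3 or CYT replicate 1 or 3 (adjusted p = 0.0644 to 0.115, edgeR) and under upper-quartile normalization (adjusted p = 0.0558, edgeR). The other tested alpha genes ranged from -0.49 (PSMA5) to 0.44 (PSMA2). PSMB2, PSMB3 and PSMB4 were at -0.51, 0.16 and 0.59, and PSMB4 was called higher under upper-quartile normalization alone (log2 fold change 0.74, adjusted p = 0.0449, edgeR). PSMA8, the alpha subunit gene of the testis, had 0 counts in 5 libraries and 2 in CYT replicate 3, under the floor of 3 counts a library, and was not tested.

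None of the 3 constitutive active-site genes was called. PSMB5, PSMB6 and PSMB7 encode the chymotrypsin-like, caspase-like and trypsin-like sites. Replicates 1 to 3 of PSMB5 stood at 71.2, 47.3 and 46.3 FPKM in control and 45.5, 61.5 and 71.0 FPKM after CYT. PSMB6 stood at 65.7, 54.1 and 56.2 FPKM and 61.5, 76.5 and 73.8 FPKM, and PSMB7 at 103, 153 and 123 FPKM and 95.2, 89.6 and 92.6 FPKM. The groups overlapped for PSMB5 and PSMB6. In counts, the log2 fold changes of PSMB5, PSMB6 and PSMB7 were 0.084 (SE 0.33), 0.24 (SE 0.28) and -0.46 (SE 0.26). PSMB7 had 272 to 354 CPM in control and 204 to 241 CPM in CYT libraries, with no overlap, and its adjusted p was 0.223 (edgeR). By edgeR and DESeq2, 0 of these 3 genes and 0 of the 3 immunoproteasome genes were called or had an unadjusted p under 0.05. Over all genes tested, 28.6% were called by edgeR and 17.3% by DESeq2, and sets of 3 genes are too small to be set apart from these shares.

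In CPM, the groups overlapped for each of the immunoproteasome genes. The comparison of both sets was made in the deposited FPKM, which divides by a length. That length equals the exonic length in GENCODE 29 within 1 base for 1 of the 49 members. Levels of different genes in FPKM thus rest on a divisor that is not explained in the sources used here. PSMB8 stood at 36.7, 39.5 and 32.7 FPKM in control and 56.2, 40.4 and 51.5 FPKM in CYT libraries. PSMB9 stood at 4.82, 3.57 and 3.90 FPKM in control and 4.30, 3.61 and 5.19 FPKM in CYT libraries. PSMB10 stood at 7.14, 2.85 and 7.40 FPKM in control and 12.5, 4.04 and 12.1 FPKM in CYT libraries. In this unit, but not in CPM, PSMB8 was higher in each CYT library than in any control library and stood near PSMB5, while PSMB9 and PSMB10 were far below them in every library. In counts, the log2 fold changes were 0.43 for PSMB8 (SE 0.29, adjusted p = 0.286, edgeR), 0.075 for PSMB9 (SE 0.33, adjusted p = 0.889, edgeR) and 0.70 for PSMB10 (SE 0.53, adjusted p = 0.352, edgeR).

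Each immunoproteasome gene was set against the gene it replaces. In control cells PSMB8 was at 67.3% of the FPKM of PSMB5, PSMB9 at 6.96% of PSMB6, and PSMB10 at 4.27% of PSMB7, each as a geometric mean over 3 libraries. After CYT these were 83.8%, 6.15% and 9.16%. These percentages depend on the lengths behind the FPKM, which cancel in the differences between the groups. The log2 ratio of PSMB8 to PSMB5 differed between the groups by 0.32 (SE 0.35, exact permutation test, two-sided p = 0.5, adjusted p = 0.7 over 3 pairs). That of PSMB9 to PSMB6 differed by -0.18 (SE 0.19, exact permutation test, p = 0.7, adjusted p = 0.7). That of PSMB10 to PSMB7 differed by 1.10 (SE 0.79, exact permutation test, p = 0.3, adjusted p = 0.7). No pair passed the test, and 3 against 3 libraries cannot give p under 0.1. The PSMB10 difference ranged from 0.50 (without control replicate 2) to 1.61 (without CYT replicate 2) with a library left out, and the PSMB8 difference was 0.036 without CYT replicate 1.

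The PSMB10 ratio moved with the replicate number. It was -3.86, -5.75 and -4.05 on the log2 scale in control and -2.93, -4.47 and -2.94 after CYT, so replicate 2 was lowest in both groups. Within same-numbered libraries it was higher after CYT by 0.92, 1.27 and 1.11, a 3 of 3 direction whose exact sign-flip permutation p of 0.25 is the smallest that 3 pairs allow. The PSMB8 ratio showed no such pattern, with differences of 1.26, -0.35 and 0.034. With the block, PSMB10 had an adjusted p of 0.0576 (edgeR). Of its exonic bases, 34.8% overlap AC040162.1 on the same strand, a gene that itself rose by 1.89 on the log2 scale (adjusted p = 0.00730, edgeR), and how the counting divided their reads is not given in the sources used here.

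**Figure D2:**
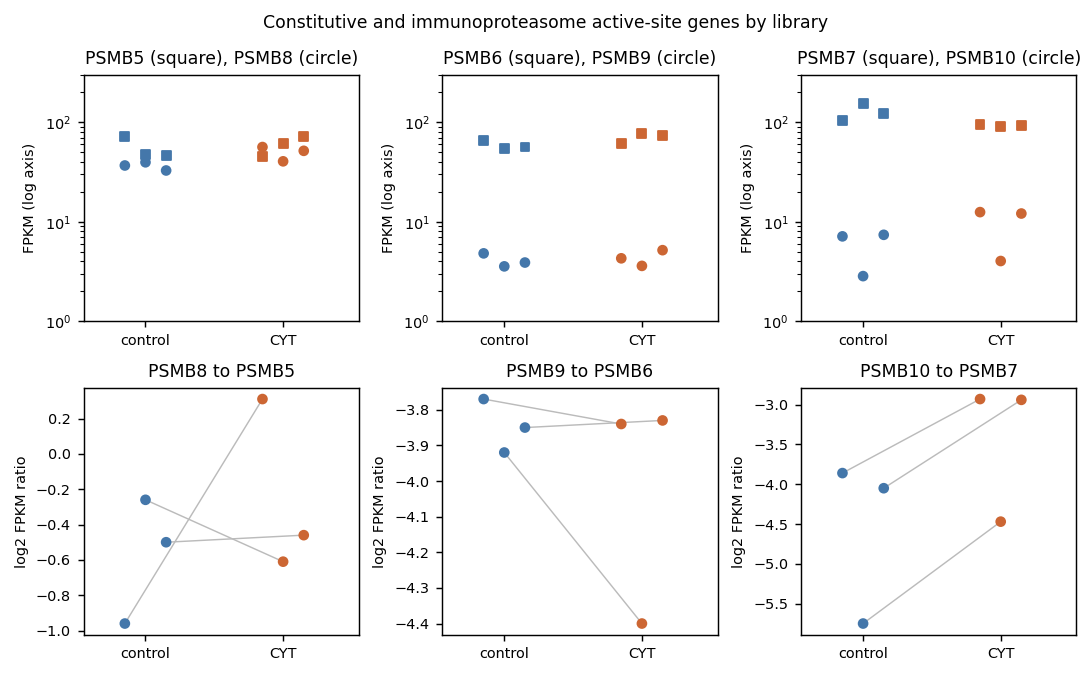
Upper row: FPKM on a log axis of each constitutive active-site gene (squares) and the immunoproteasome gene that replaces it (circles), in 3 control (blue) and 3 CYT (orange) libraries. Lower row: the log2 ratio of each pair by library, with lines joining same-numbered libraries. The groups overlap in each lower panel, and the 3 lines of PSMB10 to PSMB7 all rise, by 0.92 to 1.27.

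Summed over both sets, the immunoproteasome genes made up 16.8%, 15.3% and 16.4% of the FPKM of the 6 active-site genes in control and 26.5%, 17.4% and 22.4% in CYT libraries. The CYT values were higher, and that of CYT replicate 2 lay close to control. Beside these values, 6 leukocyte markers summed to 0.213 to 1.58 CPM in control and 4.05 to 4.84 CPM in CYT libraries. CD3E had no count in any library, PTPRC had 2 to 7 counts in CYT libraries, and CD14 made up most of the CYT sum with 49 to 59 counts. The part of these markers in the immunoproteasome values was not tested.

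PSMB11 encodes the active-site subunit of the thymoproteasome, known from the cortical epithelium of the thymus. PSMB11 (ENSG00000222028, chromosome 14 from 23042167 to 23044276, plus strand) has a single exon and lies 6937 bases from PSMB5. It had 0 counts in each control library and 44, 28 and 67 counts in CYT replicates 1 to 3. In CPM these were 3.10, 1.99 and 5.32, so each CYT library was above the floor of 3 counts a library, which is 0.187 CPM on average in control. Against that floor the mean of the CYT libraries was at least 18.6-fold higher, and without CYT replicate 3 at least 13.6-fold. The lowest CYT library was at least 9.24-fold above the floor of any control library. These bounds cover counting error only.

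Of the genes next to PSMB11, PSMB5 was not called. CDH24, a cadherin gene on the opposite strand whose end lies 2786 bases downstream, had 292, 246 and 211 counts in control and 1011, 376 and 843 in CYT libraries (log2 fold change 1.83, adjusted p = 0.00910, edgeR). Replicate 2 was the lowest CYT library for both PSMB11 and CDH24. Antisense genes as a class took 0.276 ± 0.0200% (SD, n = 3) of counts in control and 0.565 ± 0.0107% (SD, n = 3) in CYT libraries. The use of strand in counting is not given in the sources used here, and the part of either of these in the PSMB11 counts was not tested.

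PSMG1 to PSMG4 encode the chaperones that build the 20S alpha ring, and PSMD5, PSMD9 and PSMD10 encode chaperones of the 19S base. Of these 7 genes, 2 were called, both lower (28.6%, against 28.6% of all genes called in either direction and 12.9% lower). The other 5 had log2 fold changes from -0.67 to -0.08, and the lowest in size, PSMD5, was at 0.068 under upper-quartile normalization. PSMG1 (ENSG00000183527, chromosome 21 from 39174769 to 39183851, minus strand) had 26.7, 32.4 and 33.6 CPM in control and 12.8, 11.7 and 12.5 CPM in CYT libraries (log2 fold change -1.33, SE 0.29, adjusted p = 0.00850, edgeR). PSMG3 (ENSG00000157778, chromosome 7 from 1567330 to 1571005, minus strand) had 54.7, 34.7 and 39.9 CPM in control and 21.6, 11.2 and 23.0 CPM in CYT libraries (log2 fold change -1.21, SE 0.36, adjusted p = 0.0329, edgeR).

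PSMG1 and PSMG2 form one chaperone dimer, and PSMG3 and PSMG4 another. In both dimers one gene was called and its partner was not, with log2 fold changes of -0.65 for PSMG2 and -0.26 for PSMG4, and the difference between partners was not tested. PSMG3 lost its call without control replicate 1 or 3 or CYT replicate 1 or 3 (adjusted p = 0.0569 to 0.118, edgeR). PSMD9 was at -0.67 and was called lower without CYT replicate 2 alone (adjusted p = 0.0378, edgeR). POMP, the maturation factor of the 20S core from the list of further particle genes, had a log2 fold change of 0.010.

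**Figure D3:**
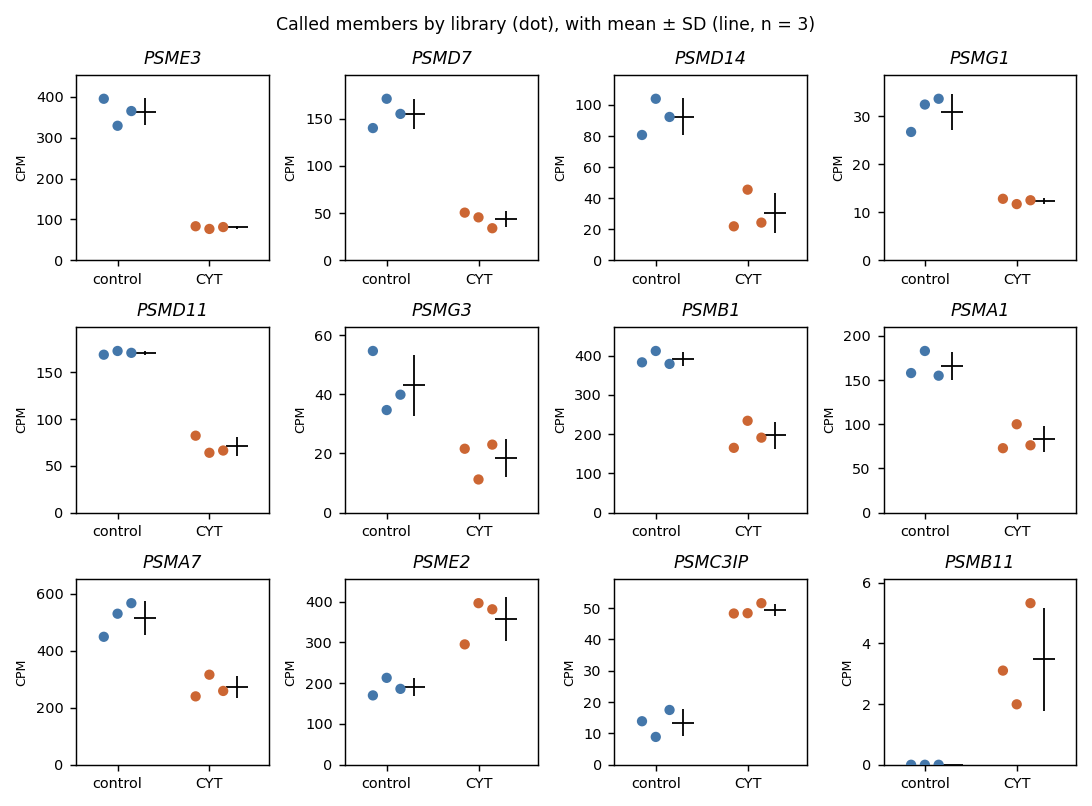
TMM-normalized CPM of the 12 called members in each library (dots, 3 control in blue and 3 CYT in orange), with the mean and SD of each group (black), each axis starting at 0. The groups do not overlap in any panel. PSMB11 is at 0 in control and at 1.99 to 5.32 CPM after CYT.

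PSMC3IP (ENSG00000131470, chromosome 17 from 42572315 to 42577831, minus strand) showed the largest rise of a member counted in both groups. It had 13.9, 8.89 and 17.5 CPM in control and 48.3, 48.4 and 51.6 CPM in CYT libraries (log2 fold change 1.88, SE 0.33, adjusted p = 0.00336, edgeR). It acts in strand exchange during recombination. Of its exonic bases, 29.9% overlap MLX on the opposite strand, which fell by 1.82 on the log2 scale (adjusted p = 0.00809, edgeR). Without PSMC3IP and PSMB11, 1 of 46 tested members (2.17%) was called higher and 9 (19.6%) lower, against 15.7% and 12.9% of all genes.

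In the deposited FPKM, the levels of subunit genes that are built into the particle in equal number differed widely. The 7 beta genes PSMB1 to PSMB7 spanned from 32.6 FPKM (PSMB2) to 153 FPKM (PSMB1) in control, a 4.68-fold range. After CYT they spanned from 23.2 FPKM (PSMB2) to 153 FPKM (PSMB3), a 6.60-fold range. These ranges depend on the lengths behind the FPKM. In CPM, which divides by no length, PSMB4 was the highest of the 7 in control, at 606 CPM beside 392 CPM for PSMB1. The 11 non-ATPase genes of the 19S particle spanned an 8.77-fold range in control, from PSMD6 to PSMD8, and a 26.1-fold range after CYT, from PSMD14 at 3.68 FPKM to PSMD8 at 96.0 FPKM. By FPKM, PSMD14 thus moved to the bottom of that group. By mean CPM it was the lowest before and after CYT, at 92.5 and 30.6 CPM. The summed FPKM of PSMB1 to PSMB7 was 627 to 658 in control and 564 to 635 in CYT libraries.

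Some of these levels are uncertain. PSMC1 had the lowest level of the ATPase genes, 2.69 FPKM in control against 77.1 for PSMC3. Of its exonic bases, 75.8% overlap NRDE2 on the opposite strand, and its processed pseudogene PSMC1P1 had 804 to 1114 counts in control libraries, more than the 312 to 398 counts of PSMC1 itself. In GENCODE 29, 24 of the 49 members share exonic bases with another gene, 13 of them over more than 10% of their own. PSMA6 shares 14.1% with AL121594.1 on the same strand, whose counts ran from 0 to 1233 among control libraries.

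Genes that act around the proteasome were taken from 5 lists of 51 genes, all of which were tested. In the lists, 6 genes were called higher and 3 lower (17.6%, against the background of 28.6%). In the list of further particle and assembly genes (ADRM1, USP14, POMP and others), 0 of 12 were called by edgeR, 0 by DESeq2, and 3 had an unadjusted p under 0.05 by each of these tools. The median log2 fold change of the list was -0.26.

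Of 12 shuttle and unfolding genes, 2 were called, both lower (16.7%, against 28.6% of all genes called and 12.9% lower). NSFL1C, the p47 cofactor of the unfoldase VCP, had 59.6, 32.5 and 90.1 CPM in control and 26.4, 13.4 and 20.1 CPM in CYT libraries (log2 fold change -1.61, SE 0.43, adjusted p = 0.0204, edgeR). NSFL1C lost its call without control replicate 1 or 3 or CYT replicate 3 (adjusted p = 0.0526 to 0.0882, edgeR). VCP itself was not called (log2 fold change -0.55). Among the 5 genes of ubiquitin supply, UBB, a polyubiquitin gene, rose by 1.22 on the log2 scale (SE 0.29, adjusted p = 0.0130, edgeR).

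Of 9 genes of the transcriptional control of proteasome genes, 1 was called (11.1%, against 28.6% of all genes). NFE2L1, the factor that raises subunit genes when protease activity is short, had 231, 154 and 301 CPM in control and 743, 708 and 758 CPM in CYT libraries. Each CYT library stood far above the highest control library. Its log2 fold change was 1.69 (SE 0.31, adjusted p = 0.00408, edgeR), and it held in all 14 alternative fits. The related genes NFE2L2 and NFE2L3 were not called (-0.22 and -0.72). Of the 17 subunit genes of the 19S particle, 0 were called higher, against 15.7% of all genes. Of the 18 tested core genes, 1 was called higher, PSMB11, which had no count in control. The part of NFE2L1 in the levels of these genes was not tested.

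Of 13 genes of the interferon axis, 5 were called, 4 of them higher (38.5%, against the background of 28.6%), and the median log2 fold change was 0.55. IRF1, a transcription factor of immunoproteasome genes, had 42.9, 31.1 and 37.7 CPM in control and 128, 63.1 and 128 CPM in CYT libraries (log2 fold change 1.51, SE 0.35, adjusted p = 0.0115, edgeR). IRF1 lost its call without control replicate 3 (adjusted p = 0.0539, edgeR). STAT2, a signal transducer of interferon receptors, rose by 0.99 on the log2 scale (adjusted p = 0.0277, edgeR) and lost its call in 6 of 14 alternative fits. NLRC5, the transactivator of MHC class I genes, fell by 1.81 on the log2 scale (SE 0.40, adjusted p = 0.00909, edgeR).

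TAP1, a peptide transporter gene that lies next to PSMB9 in the MHC class II region, had 110, 88.7 and 79.6 CPM in control and 347, 263 and 435 CPM in CYT libraries (log2 fold change 1.91, SE 0.31, adjusted p = 0.00237, edgeR). PSMB9 stood at 17.4 ± 3.85 CPM (SD, n = 3) in control and 18.3 ± 4.57 CPM (SD, n = 3) in CYT libraries. The difference between TAP1 and PSMB9 was not tested.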

How the data were processed

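RNA-seq libraries of MDA-MB-231-DR cells, 3 control and 3 with CYT, were sequenced on an Illumina NovaSeq platform after separation of mRNA. The authors filtered out reads of low quality, with adapters or from ribosomal RNA and mapped what was left to hg38 with Hisat2, and the submitters' processing notes name FastQC 0.12.1. They deposited 1 table with raw counts and FPKM per gene and library. Per the methods FPKM came from Stringtie. The program behind the raw counts, its annotation and its use of strand are not given in the sources used here. The locus of all 49 members equals that in GENCODE 29, but the length behind the FPKM values equals its exonic length within 1 base for 1 member.

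Raw counts were fitted with edgeR 4.0.16 in R 4.3.3 (TMM, filterByExpr with a minimum count of 10, quasi-likelihood test, Benjamini-Hochberg adjustment over 15572 genes), without a block, since the methods name none for the sequencing data (they name a paired t-test for comparisons of 2 groups in general). The fit with the replicate block is an alternative. Standard errors are the log2 fold change divided by the square root of F. The script was tested on simulated data. Apart from the limma alternatives, FPKM was used to compare genes, and for the ratios, shares and sums over the active-site and beta genes set side by side between groups. Deviations from the group means were correlated between libraries of one number (across genes 0.188, 0.458 and 0.124), which by a limit of 0.1 was taken as pairing by the labels' replicate numbers. Replicates 1 and 3 correlated better with each other's number, at 0.303 (control 1, CYT 3) and 0.201 (control 3, CYT 1). Values in every library are given for called members, PSMB5 to PSMB10 and PSMD1. Of the pathway lists, called genes are named except some not reported here, and other genes were named after their values were seen. Members and lists were chosen with earlier results of these data known. Alternatives were upper-quartile factors, DESeq2 1.42.0, other filters, limma 3.58.1 on log2 FPKM with pseudocounts of 1 and 0.1, protein-coding genes alone, a replicate block, and leaving out each library.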

Additional observations from a re-analysis of the deposited data

Results flagged for a closer look

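Of 37 further rows whose symbol begins like a member's, 32 are pseudogenes and 5 are antisense or intergenic noncoding genes. They are outside the comparisons above, 6 of them passed the filter on low counts, and 2 stood above the control level with an adjusted p under 0.05.

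PSMB8-AS1, a noncoding gene that shares 618 exonic bases with PSMB8 on the opposite strand and 174 with PSMB9 on the same strand, had 25, 13 and 12 counts in control and 117, 73 and 118 counts in CYT replicates 1 to 3 (log2 fold change 2.87, standard error 0.47, adjusted p = 0.00248 from edgeR). PSME2P2, a processed pseudogene of PSME2 on chromosome 13, had 41, 82 and 74 counts in control and 138, 155 and 138 counts in CYT libraries (log2 fold change 1.38, standard error 0.37, adjusted p = 0.0220 from edgeR), and it lost this call without control replicate 1, control replicate 2, CYT replicate 1 or CYT replicate 3. How the counting divided reads between PSME2P2 and PSME2 is not given in the sources used here.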

How the results depend on the processing

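The counts of called members (12, of which 9 lower and 3 higher) ran from 7 to 13, from 5 to 10 lower and from 2 to 3 higher with a library left out, where fewer libraries were fitted. Over the other alternatives they ran from 8 to 14. The members' median of -0.10 ran from -0.35 to -0.056 with a library left out. With the replicate block 14 members (29.2%) and 39.9% of all genes were called, and beside PSMD3 and PSMF1, both called lower, it changed no other call of a member. Without CYT replicate 2 the difference of the PSMB9 to PSMB6 ratio was 0.012, and over the 6 fits it ran from -0.28 to 0.012.

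Of 671 alternative values of single members, 599 kept their direction and call, 25 lost a call, 4 gained one and 43 changed sign, none of the last with a call. The cause of these changes was not tested. PSMA3 was -0.050 without a filter, -0.034 with limma on log2(FPKM + 1), -0.044 on log2(FPKM + 0.1) and -0.064 with the replicate block, and PSMA4 was -0.045 without a filter. With upper-quartile normalization PSMC3 was 0.087, PSMC5 0.079, PSMD4 0.027 and PSMD5 0.068. With a mean of at least 5 CPM PSMC3 was 0.036, PSMC5 0.029 and PSMD5 0.020, and with protein-coding genes only PSMC3 was 0.020 and PSMC5 0.0022. PSMD1 was -0.0080 with the replicate block. With a library left out, uncalled members ranged from -0.54 to 0.28 (PSMA3), -0.074 to 0.12 (PSMA4), -0.10 to 0.36 (PSMB5), -0.10 to 0.24 (PSMB9), -0.26 to 0.13 (PSMC3), -0.12 to 0.27 (PSMC4), -0.30 to 0.10 (PSMC5), -0.037 to 0.41 (PSMC6), -0.42 to 0.36 (PSMD1), -0.070 to 0.23 (PSMD2), -0.36 to 0.072 (PSMD4), -0.52 to 0.027 (PSMD12) and -0.37 to 0.11 (PSMD5). Depth limits PSMB11 and PSMA8, which had few counts, and the floor covers counting error only.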
